A study of Mus musculus with 11 samples.

Results

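The genes described here encode the start of the β-adrenergic pathway and its kinase, namely the receptors Adrb1 and Adrb3, the stimulatory G protein subunit Gnas, the catalytic subunits of protein kinase A (PKA) Prkaca and Prkacb, and the regulatory subunits Prkar1a, Prkar1b, Prkar2a and Prkar2b. These 9 genes were picked by name, out of 29955 gene symbols with a representative sense transcript in the RNA-seq files, and other β-adrenergic receptors were not analysed here. The study asked how JMJD1A (Kdm3a), a histone demethylase that PKA phosphorylates at the serine S265, acts in beige adipogenesis, so the members are the signalling steps that lie before that phosphorylation. The 11 RNA-seq samples came from the line im-scWAT, mouse preadipocytes of inguinal subcutaneous white fat (scWAT) immortalized with SV40 large T antigen.

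The time course comprised 6 samples. Confluent preadipocytes at day 0 gave 2 samples, of which 1 is labelled with rosiglitazone (ROS) and 1 without, although ROS, a PPARγ agonist, was first given with the induction medium at day 0, so they were treated as 1 group (n = 2). Days 4 and 8 each had 1 sample with 0.5 μM ROS (ROS plus) and 1 without (ROS minus). All cells taken after day 0 had received indomethacin, dexamethasone, 3-isobutyl-1-methylxanthine (IBMX), insulin and T3 for the first days and then insulin and T3. IBMX is a phosphodiesterase inhibitor that raises cAMP. The transduced cells comprised 5 samples at day 8 of the ROS protocol, which all carried a retroviral shRNA against mouse Jmjd1a and a human JMJD1A (hJMJD1A) cDNA driven by the viral LTR promoter. The human protein was WT-hJMJD1A in 2 samples (WT A and WT B), the S265A form that cannot be phosphorylated at this serine in 1, the phosphomimetic S265D form in 1, and S265D-H1120Y, which also carries a mutation of the catalytic histidine, in 1. The labels and the methods of the study differ on whether ROS was withdrawn on the last day. No source says that samples of a group came from separate cultures, so the spread between them may be technical. Beside the spread of other genes, p-values of the time course rest on the day 0 pair and on how the ROS difference varied between days 4 and 8. Those of the transduced cells rest on the WT pair.

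The files behind the 11 samples held 3.10 to 5.29 Gb of mapped bases, with a median of 4.64 Gb. FPKM is a value scaled to the length of the transcript and to the depth of the sample, so levels of different genes may be set side by side. The summed FPKM of 6 adipocyte markers was 267 and 268 at day 0, nearly all of it Fabp4. It went from 10602 to 34245 at days 4 and 8 and from 14434 to 28283 in the transduced cells. Lep stayed between 0 and 0.252. The sum of 5 preadipocyte markers was 540 and 607 at day 0 and between 139 and 566 at days 4 and 8. Of these, Ly6a was 495 at day 8 without ROS, against 424 and 484 at day 0. Pdgfra was above day 0 in every later sample of the time course, and Dlk1, Cd34 and Pdgfrb were below it. Ptprc and Emr1 of macrophages, Myf5, Myod1 and Myog of muscle, and Th of sympathetic neurons were at 0 in every sample. Cd68, which is also found outside macrophages, was between 0.541 and 21.7. Csf1r of macrophages reached 0.331, at day 0, and Dbh of sympathetic neurons reached 0.0202, at day 8 without ROS. Of the endothelial markers, Pecam1 was between 0.0526 and 0.263 in the time course and between 0.965 and 3.47 in the transduced cells. Kdr reached 0.567, at day 8 without ROS, and Cdh5 was below Kdr in every sample. FPKM differed by 2-fold or more between the samples of day 0 in 4.9% of 15030 genes (1.94% higher and 2.96% lower in replicate 2) and between WT A and WT B in 27.2% of 15837 genes, so WT A and WT B stood much further apart and each ratio over WT is given for each of them. For Kdm3a, the target of the shRNA, WT A had an FPKM of 20.4, WT B of 17.9, S265A of 13.0, S265D of 23.0 and S265D-H1120Y of 28.5, against 21.1 in untransduced cells at day 8 with ROS. It was therefore no lower than the untransduced value in 2 of the 5 samples, there was no sample with a control shRNA, and what the human cDNA adds to this value was not tested, so Kdm3a does not check the labels.

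In fat cells, noradrenaline from sympathetic nerves binds β-adrenergic receptors, of which the β3 receptor is the form typical of rodent adipocytes. The receptor acts through Gsα on adenylyl cyclase, and cAMP then binds the regulatory subunits of PKA and frees the catalytic subunits, which phosphorylate lipases, perilipin, CREB and other targets. The regulatory subunits fall into type I (RIα and RIβ, from Prkar1a and Prkar1b), largely soluble and more sensitive to cAMP, and type II (RIIα and RIIβ, from Prkar2a and Prkar2b), which anchoring proteins hold at membranes, with RIIβ known as the main form of mature white and brown fat.

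The regulatory subunits Prkar2b, Prkar1b and Prkar1a had the largest changes of the PKA genes during differentiation, in opposite directions, and their promoters are therefore shown. RefSeq promoters (GRCm38.p6) were found for 8 of the 9 members, with 24 start sites in all, and Adrb3 was not among them. The start of the transcript used here lay in the window of a RefSeq start for 6 members, within 2 bases of that start. The 250 bases before that start are printed 5′ to 3′ on the coding strand, with capitals for a match on either strand to the cAMP response element (CRE) TGACGTCA, its core TGACG, the C/EBP motif TTNNGCAA and its palindrome TTGCGCAA, the direct repeat DR1 that PPARγ binds, the GC box GGGCGG, the E-box CACGTG or TATAAA. The core is part of the CRE, and the palindrome is a form of the C/EBP motif.
Prkar2b, chr12:32061278-32061527, minus strand: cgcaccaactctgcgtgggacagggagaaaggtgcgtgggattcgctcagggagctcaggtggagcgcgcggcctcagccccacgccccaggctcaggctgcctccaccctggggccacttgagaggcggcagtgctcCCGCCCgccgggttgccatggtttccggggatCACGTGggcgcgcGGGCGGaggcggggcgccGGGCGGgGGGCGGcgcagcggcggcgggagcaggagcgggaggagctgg
Prkar1b, chr5:139129753-139130002, minus strand: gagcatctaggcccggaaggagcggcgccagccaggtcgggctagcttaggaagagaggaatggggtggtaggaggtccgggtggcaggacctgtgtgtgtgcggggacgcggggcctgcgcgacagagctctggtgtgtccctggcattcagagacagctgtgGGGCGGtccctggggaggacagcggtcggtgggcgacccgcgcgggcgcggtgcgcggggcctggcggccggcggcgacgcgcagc
Prkar1a, chr11:109650699-109650948, plus strand: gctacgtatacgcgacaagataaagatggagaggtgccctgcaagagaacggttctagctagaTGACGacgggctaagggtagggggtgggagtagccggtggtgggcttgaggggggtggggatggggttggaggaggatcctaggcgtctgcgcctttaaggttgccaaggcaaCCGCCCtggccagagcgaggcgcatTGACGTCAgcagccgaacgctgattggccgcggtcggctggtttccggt

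The Prkar1a promoter held a full CRE from 49 to 42 bases before the start, a sequence found in 1.79% of the 32851 promoter windows of 300 bases (250 before and 50 after each start). The core alone stood in 20.8% of them. The Prkar2b promoter held 4 GC boxes, found in 35.7% of windows, and 1 E-box, found in 7.15%, and no CRE core. The Prkar1b promoter held 1 GC box in the printed bases and no other of these motifs. Neither TTNNGCAA (10.8% of windows) and TTGCGCAA (0.183%) nor DR1 (0.0396%) stood in any of the 24 windows of the members. TATAAA (13.6%) was found in windows of Gnas and Prkacb. These letters are a description of the windows and were not tied to a change in level.

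Adrb3 (chr8:28336248-28340060 on mm9, minus strand), which encodes the β3 receptor, went from no mapped base at day 0 to a measurable level in all 9 later samples. Neither sample of day 0 had any (FPKM 0), and its level was 2.89 without and 2.78 with ROS at day 4, and 4.12 without and 4.25 with ROS at day 8. The days did not overlap, and the samples with and without ROS lay side by side on each day. Adrb3 rose between day 0 and days 4 and 8 (log2 change 5.15 ± 0.18 SE, adjusted p = 1.35e-05, limma with Benjamini-Hochberg adjustment over 16400 genes). Since it was at 0 at day 0, no fold is given, and the log2 change depends on the 0.1 added to each FPKM (2.16 with 1 added). The day 0 pair, at 0 in both samples, added no spread to the fit of Adrb3 but still counted in its degrees of freedom. That makes the SE and p-value of Adrb3 smaller, and both rest on the later samples and on the spread of other genes. The further change from day 4 to day 8 was 0.55 ± 0.21 and did not pass the threshold (adjusted p = 0.146). Among the transduced cells, WT A had 5.48, WT B 5.58, S265A 2.18, S265D 9.65 and S265D-H1120Y 2.47. Over the 11 samples the order from the highest was S265D, the WT samples, day 8, day 4, then S265D-H1120Y and S265A, and day 0. With 1 sample in most groups, whether other neighbours in this order differ was not tested.

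Adrb1 (chr19:56796862-56799352, plus strand), which encodes the β1 receptor, was near the limit of detection. It had between 0 and 594 mapped bases in the 6 samples of the time course, where 198 was the most common value above 0 in a file, with FPKM of 0.034 and 0.017 at day 0, 0 and 0.031 at day 4 without and with ROS, and 0.037 and 0.047 at day 8. It was under the minimum FPKM of 0.1 in all of them and was not tested there. Among the transduced cells, WT A had 0.397, WT B 0.152, S265A 0.060, S265D 0.289 and S265D-H1120Y 0.052, which all lay above the time course, although the lowest of them rested on 594 mapped bases. The transduced cells were a separate experiment from the time course, so transduction and experiment cannot be told apart. Adrb3 made up 93.2% to 100% of the summed FPKM of these receptors in each of the 9 samples after day 0.

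**Figure D1:**
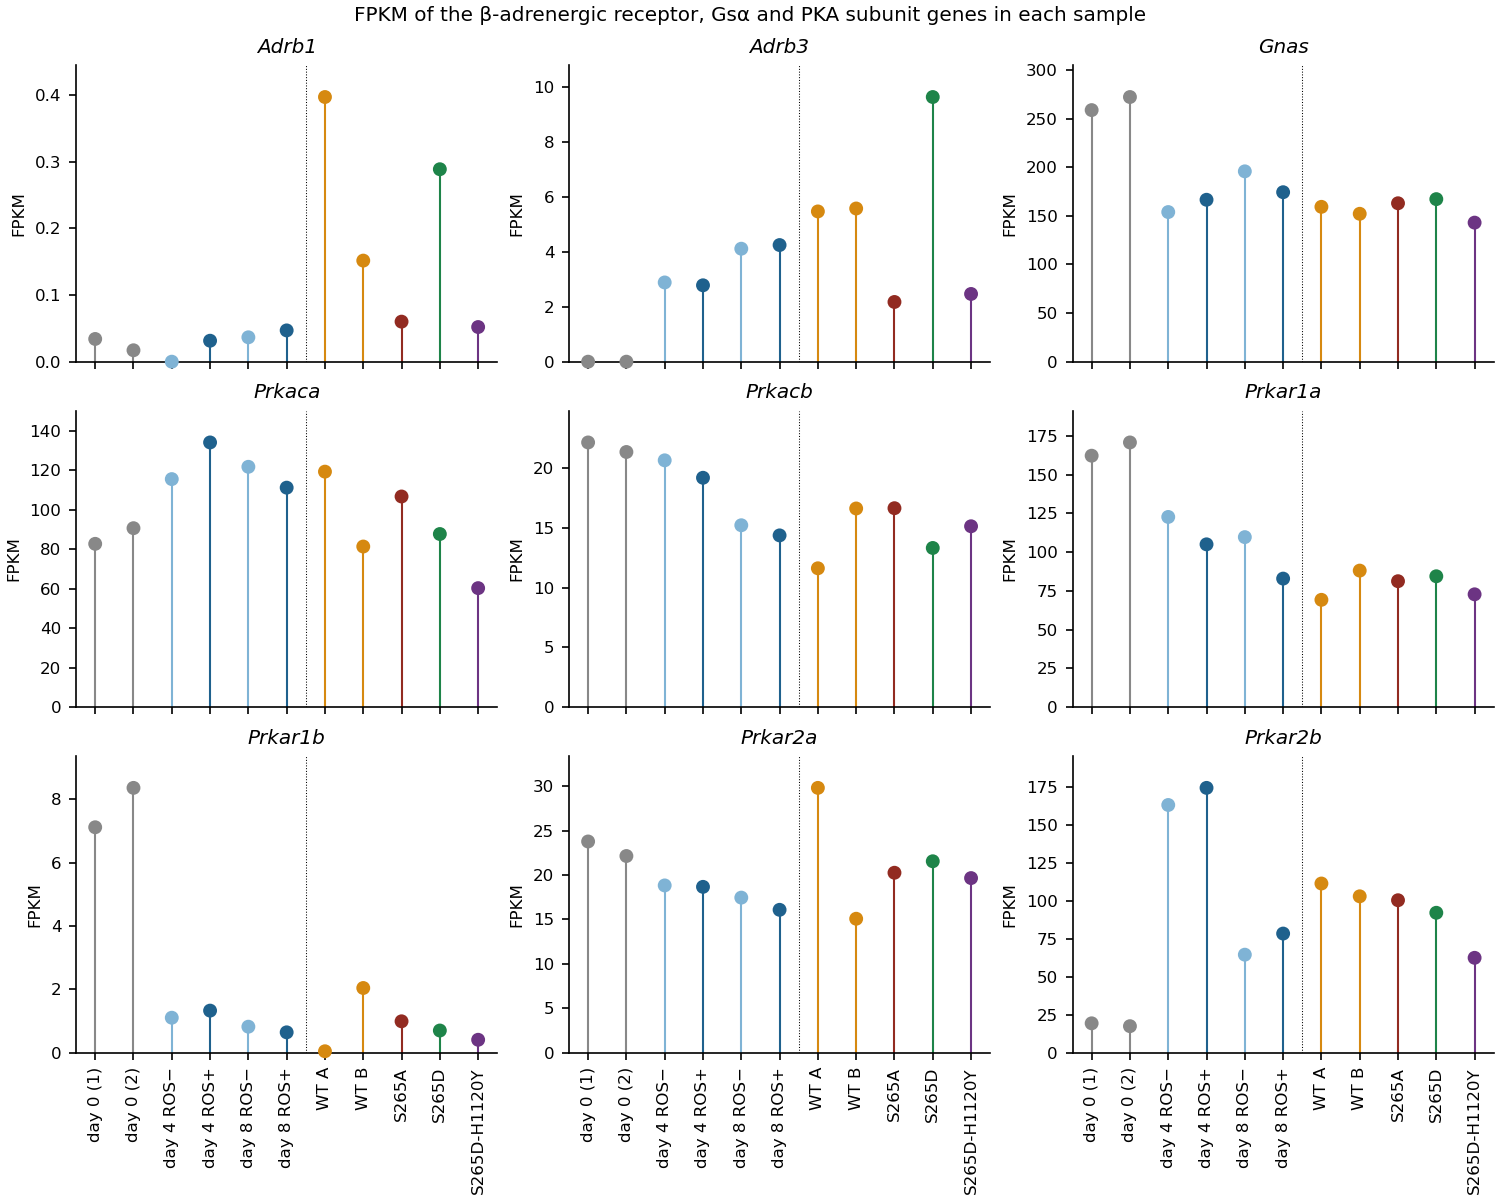
FPKM (y axis, from 0, a scale for each panel) of the 9 members in each of the 11 samples (x axis), with 1 point per sample and a dotted line between the time course and the transduced cells. Adrb3 is at 0 at day 0, Prkar2b is highest at day 4 with 163 and 174, and Prkar1b is highest at day 0 with 7.12 and 8.36.

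Gnas (representative transcript chr2:174153609-174172243, plus strand) encodes Gsα, which couples the receptors to adenylyl cyclase. By representative transcripts Gnas was the most abundant member in 9 of the 11 samples, with Prkar2b above it in both samples of day 4. Its FPKM was 259 and 272 at day 0 (266 ± 9.52, SD, n = 2), 154 without and 167 with ROS at day 4, 196 without and 174 with ROS at day 8, and 143 to 167 in the transduced cells. The day 0 samples lay above every other sample. Gnas fell by 0.63 on the log2 scale between day 0 and days 4 and 8 (SE 0.11, limma adjusted p = 0.00409). The files list 11 overlapping transcripts of this imprinted locus, which share mapped bases. The shortest of the abundant ones, of 1452 bases, had a mean FPKM of 636 at day 0 and 408 at days 4 and 8. Its log2 change of -0.64 was close to that of the representative one. At day 4 this form had 363 without and 396 with ROS, above Prkar2b at 163 and 174. The rank of Gnas at day 4 therefore depends on the transcript used. An antisense transcript overlaps the locus, and sense and antisense rows were separate in the files, with antisense FPKM of Gnas between 0.748 and 1.31.

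Prkaca and Prkacb encode the catalytic subunits Cα and Cβ of PKA, and Prkaca was the higher of the pair in every sample. Prkaca had an FPKM of 82.6 and 90.6 at day 0, 115 without and 134 with ROS at day 4 and 122 and 111 at day 8, so the day 0 samples were the lowest of the time course. It rose by a log2 change of 0.47 ± 0.11 between day 0 and days 4 and 8 (limma adjusted p = 0.0133). Prkacb had 22.2 and 21.4 at day 0, 20.7 and 19.2 at day 4 and 15.2 and 14.4 at day 8, without and with ROS in turn. Every later sample lay under day 0, and Prkacb fell by 0.34 on the log2 scale (SE 0.09, limma adjusted p = 0.0218). The share of Prkaca in the summed catalytic FPKM was 78.9% and 80.9% at day 0, 84.8% and 87.5% at day 4, 88.9% and 88.5% at day 8, and between 79.9% and 91.1% in the transduced cells.

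Prkar2b, which encodes RIIβ, was the only regulatory subunit that rose. Its FPKM was 19.2 and 17.4 at day 0 (18.3 ± 1.33, SD, n = 2), 163 without and 174 with ROS at day 4, and 64.4 without and 78.3 with ROS at day 8. The mean of day 4 was 9.21 times and that of day 8 was 3.90 times the mean of day 0, and the samples of each day stood apart from those of the others. Prkar2b rose between day 0 and days 4 and 8 (log2 change 2.58 ± 0.10, limma adjusted p = 1.62e-05). From day 4 to day 8 it fell by 1.25 on the log2 scale (SE 0.11, limma adjusted p = 0.0136), to 0.423 times the FPKM of day 4. Among the transduced cells, WT A had 111, WT B 103, S265A 100.2, S265D 92.0 and S265D-H1120Y 62.3. Over the 11 samples Prkar2b was highest at day 4, then in the WT samples, S265A and S265D, then at day 8 and in S265D-H1120Y, and lowest at day 0. The files list a second transcript of 1700 bases, which had a mean FPKM of 25.7 at day 0 and 144 at days 4 and 8, a log2 change of 2.34.

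Prkar1b, which encodes RIβ, the form known from the nervous system, moved the opposite way. Its FPKM was 7.12 and 8.36 at day 0, 1.10 without and 1.32 with ROS at day 4, and 0.816 and 0.638 at day 8, so day 0 did not overlap with later days. It fell by 2.91 on the log2 scale (SE 0.20, limma adjusted p = 1.12e-04), and the mean of days 4 and 8 was 0.125 times that of day 0. Of the transduced cells, WT A had 0.041, from 396 mapped bases, and WT B 2.04, so that the WT samples alone spanned the values of the mutants, 0.403 to 0.987.

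Prkar1a, which encodes RIα, the broadly expressed type I subunit, was the most abundant regulatory subunit at day 0. Its FPKM was 162 and 171 at day 0, 123 without and 105 with ROS at day 4, 110 and 82.9 at day 8, and 69.2 to 88.1 in the transduced cells. It fell by 0.68 on the log2 scale between day 0 and days 4 and 8 (SE 0.10, limma adjusted p = 0.00186). Prkar2a, which encodes the broadly expressed RIIα, had the smallest ratio of highest to lowest FPKM of the regulatory subunits in the time course, with 23.8 and 22.1 at day 0, 18.8 and 18.7 at day 4, and 17.5 and 16.1 at day 8. It fell by 0.37 on the log2 scale (SE 0.10, limma adjusted p = 0.0184).

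In all, 57.4% of the 16400 genes tested passed the threshold between day 0 and days 4 and 8, 28.3% higher and 29.1% lower. Of the 9 members, 8 passed the minimum FPKM and 3 of them rose (Adrb3, Prkar2b and Prkaca) and 5 fell (Gnas, Prkacb, Prkar1a, Prkar1b and Prkar2a), and a share of members called this high is to be read against the share of all genes. With day 0 replicate 1 left out, Gnas (adjusted p = 0.0663), Prkaca (0.162), Prkacb (0.177) and Prkar2a (0.176) no longer passed. Without replicate 2, the same 4 genes (0.0834, 0.0965, 0.130 and 0.103) and Prkar1a (0.0545) no longer passed, while Adrb3, Prkar2b and Prkar1b did under each of them. From day 4 to day 8, 8.47% of genes passed, 4.57% higher and 3.9% lower, and of the members only Prkar2b did. Its call ended without either sample of day 0 (adjusted p = 0.175 and 0.185), with no minimum FPKM (0.063), without the trend in limma (0.0545) and with 1 mean per day and arm (0.0955). The summed adipocyte markers rose after day 0 as given above. From day 4 to day 8 Fabp4, most of the sum, fell without ROS (20694 to 7631) and rose with ROS (29590 to 31402). Cfd and Pparg rose in both arms. In these bulk samples fewer cells of a type and less RNA per cell cannot be told apart.

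**Figure D2:**
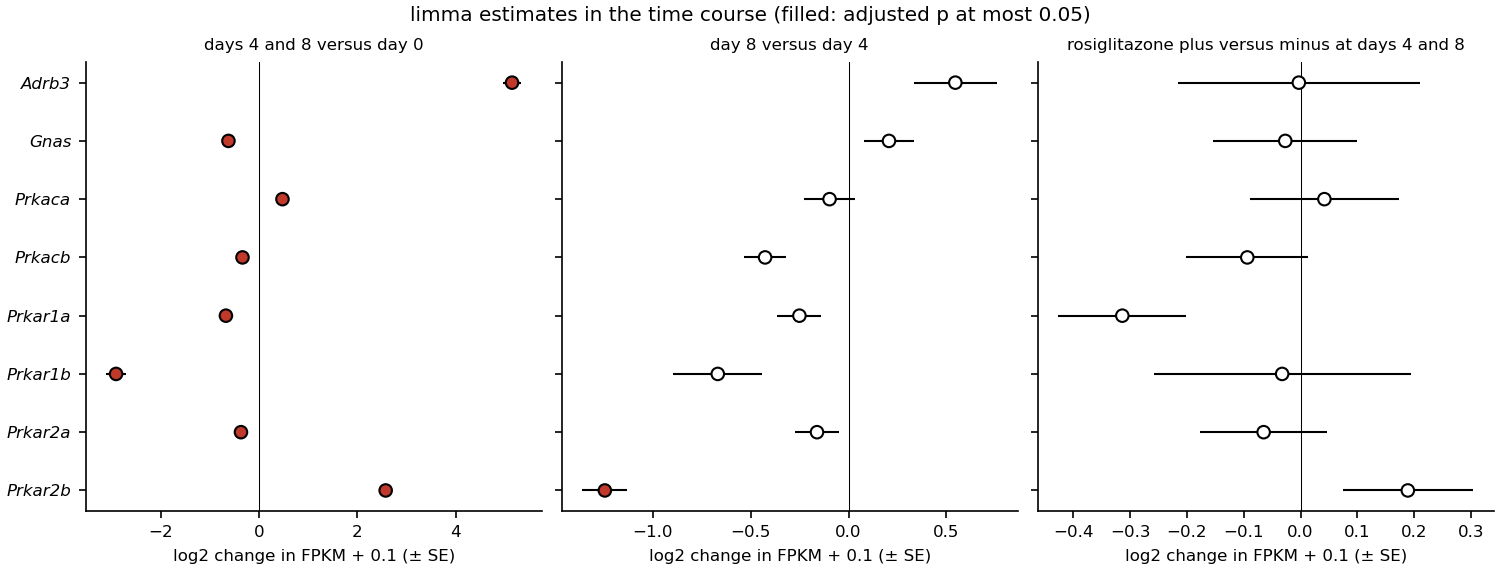
log2 change in FPKM + 0.1 with its SE (x axis, a scale for each panel) of the 8 tested members (y axis) in the limma fit of the time course, filled where the adjusted p was at most 0.05. Adrb3 and Prkar2b lie at 5.15 and 2.58 and Prkar1b at -2.91 for days 4 and 8 versus day 0, only Prkar2b is filled for day 8 versus day 4, and no member is filled for ROS.

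The composition of the regulatory subunits changed with these levels. Prkar2b made up 9.06% and 7.94% of the summed FPKM of the 4 regulatory subunits at day 0, 53.3% without and 58.2% with ROS at day 4, 33.5% without and 44.0% with ROS at day 8, and 40.2% to 52.9% in the transduced cells. Prkar1a went from 76.4% and 78.1% at day 0 to 40.2% and 35.1% at day 4 and 57.0% and 46.6% at day 8, and was between 32.9% and 46.9% in the transduced cells. The type II genes Prkar2a and Prkar2b together held 20.3% and 18.1% at day 0 and between 42.6% and 67.1% in all 9 later samples. The ratio of summed regulatory to summed catalytic FPKM was 2.03 and 1.95 at day 0, 2.25 and 1.95 at day 4 without and with ROS, 1.41 and 1.42 at day 8, and 1.61 to 2.12 in the transduced cells. At day 8 this ratio was below that of every sample of days 0 and 4, and the transduced samples, also of day 8, all lay above 1.42. These shares follow from the levels above, were not tested, and are of transcripts, not of protein.

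**Figure D3:**
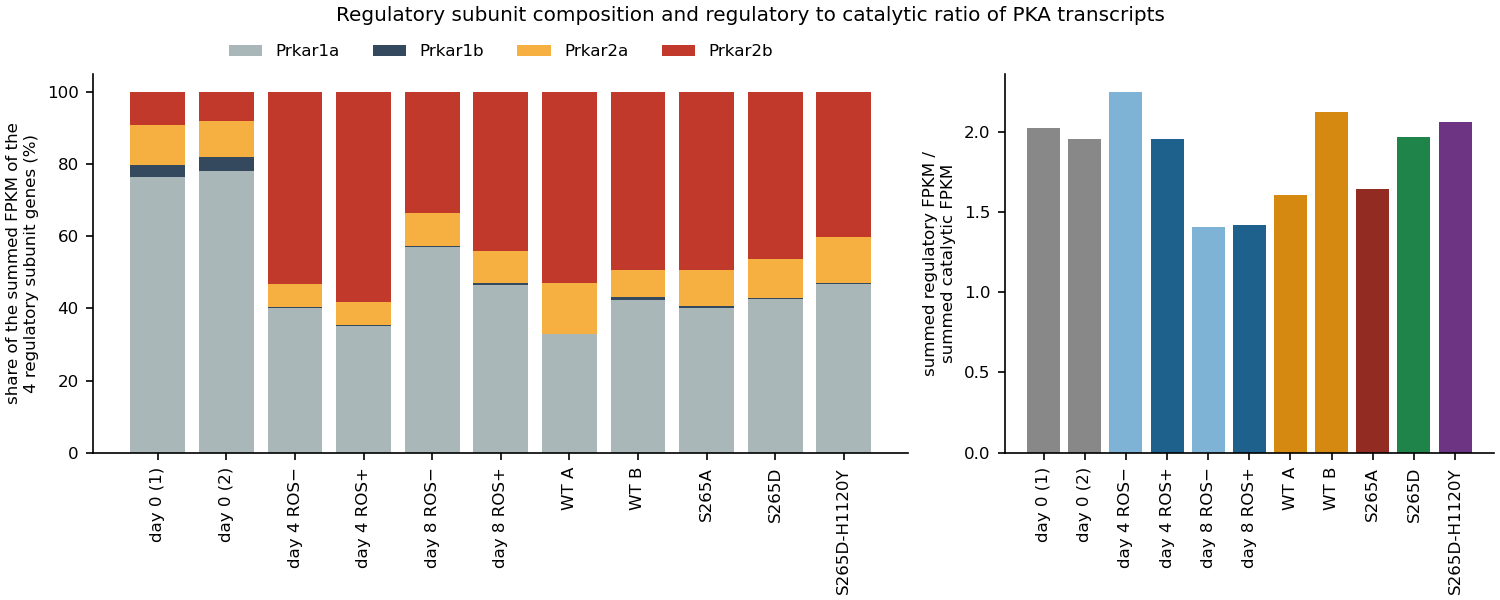
Left, the share of each regulatory subunit gene in the summed FPKM of the 4 genes (y axis, %) in each of the 11 samples (x axis, 1 bar each). Right, the summed regulatory over the summed catalytic FPKM in the same samples. Prkar2b takes 7.94% to 9.06% at day 0 and 33.5% to 58.2% afterwards, and the ratio is lowest at day 8 of the time course, at 1.41 and 1.42.

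ROS, which turns these cultures towards the beige type, was not followed by a change past the threshold in any member. In the limma fit, 0% of 16400 genes passed (0 genes, the smallest adjusted p was 0.0981, with 3260 genes at an unadjusted p under 0.05), and the median of all genes was -0.13 on the log2 scale, which median-ratio scaling of the samples brought to -0.02. The member with the largest difference was Prkar1a, with 123 without and 105 with ROS at day 4 and 110 and 82.9 at day 8, so that ROS plus was lower on both days (log2 difference -0.31 ± 0.11, adjusted p = 0.211, and -0.19 after scaling). Prkar2b was higher with ROS on both days (0.19 ± 0.11, adjusted p = 0.397, and 0.31 after scaling). Adrb3 differed by -0.00 ± 0.21 (0.12 after scaling), and the others lay between -0.09 and 0.04 with SE from 0.11 to 0.23. After scaling these others lay between 0.03 and 0.17, so Adrb3, Gnas, Prkacb, Prkar1b and Prkar2a changed sign with the scaling. The difference between the ROS effects of days 8 and 4 had adjusted p-values from 0.383 to 0.925 in the 8 tested members. By the 2-fold rule on single samples, 0 of the 8 members with a value were past 2-fold at day 8, against 19.2% of 15536 genes (4% higher and 15.2% lower), and 0 of 8 at day 4, against 6.7% of 15246 genes (2.2% higher and 4.51% lower). At day 8 the member ratios of ROS plus over minus went from 0.756 (Prkar1a) to 1.22 (Prkar2b).

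In the transduced cells, limma called 0% of 16402 genes for S265A versus WT, for S265D versus WT and for S265D-H1120Y versus S265D, with 73, 77 and 146 genes at an unadjusted p under 0.05 and only the WT pair to give the spread. The first and the second of these comparisons share the WT samples, and the second and the third share S265D. Adrb3 had the largest difference relative to its error, with log2 differences of -1.31 ± 0.44 for S265A versus WT, 0.79 ± 0.44 for S265D versus WT and -1.92 ± 0.51 for S265D-H1120Y versus S265D, each with an adjusted p of 1. None of these 3 differences passed the threshold under any alternative. With a WT sample left out, only the day 0 pair could give a spread. Adrb3 was at 0 in both samples of that pair, so these fits measure no spread of Adrb3. Since the WT samples were 5.48 and 5.58, the value of 2.18 in S265A lay below and that of 9.65 in S265D above both. The markers of the cells did not stay level among these samples. The summed adipocyte markers went from 14434 to 28283, and single markers ran in different orders. Adipoq, which encodes adiponectin, had an FPKM of 978 in WT A, 738 in WT B, 608 in S265A, 589 in S265D and 396 in S265D-H1120Y, while Fabp4, most of the sum, was lowest in WT A with 12393 and highest in WT B with 26902. Plin1 went from 148 in S265D-H1120Y to 293 in WT A and Pparg from 73.9 in S265D-H1120Y to 100.4 in S265D. The summed preadipocyte markers went from 141 in WT A to 554 in WT B, with Ly6a at 116 and 496. The beige marker Ucp1 had 12.1 in WT A, 0.724 in WT B, 0.972 in S265A, 4.67 in S265D and 0.053 in S265D-H1120Y. For Cidea, another beige marker, these samples had 33.2, 7.03, 7.29, 43.4 and 2.35 in the same order. Cidea and Adrb3 were both highest in S265D, but Cidea and Ucp1 differed widely between the WT samples and Adrb3 did not. Their part in the differences was not tested.

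By the 2-fold rule, S265A over WT A was lower for Adrb1 (0.151) and Adrb3 (0.397) and higher for Prkar1b (24.3), where 19% of 15669 genes were past 2-fold, 10.7% higher and 8.32% lower. S265A over WT B was lower for Adrb1 (0.396), Adrb3 (0.390) and Prkar1b (0.484), where 13% of 15706 genes were past 2-fold, 5.07% higher and 7.95% lower. Prkar1b thus had ratios on opposite sides of 1 against WT A and WT B, while both receptors were lower against each of them. The ratio of 24.3 rests on a Prkar1b FPKM of 0.041 in WT A, from 396 mapped bases and under the minimum. By a rule set after the data were seen, 2-fold in the same direction over both WT samples, Adrb1 and Adrb3 were lower in S265A. Adrb1 passed the minimum FPKM of 0.1 only through the WT samples, since S265A had 0.060 from 792 mapped bases. By the same rule 1.35% of 15324 genes were lower (1.92% were higher, 3.27% in all). As the rule was set on these data, the members cannot be weighed against this share. Adrb1 differed between WT B and WT A by a ratio of 0.382, about as much as between S265A and WT B.

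S265D over WT A was past 2-fold in 1 member (Prkar1b, 17.1, against 20.8% of 15788 genes, 13.1% higher and 7.71% lower), S265D over WT B in 1 member and the opposite direction (Prkar1b, 0.341, against 9.65% of 15734 genes, 5.28% higher and 4.37% lower). No member was past 2-fold in 1 direction over both, against 2.96% of 15433 genes, 2.09% higher and 0.875% lower. The ratios of Adrb3 were 1.76 and 1.73, close to each other and inside the 2-fold rule. S265D-H1120Y over S265D was past 2-fold in 2 members, Adrb1 (0.180) and Adrb3 (0.256), against 14.3% of 15760 genes, 5.62% higher and 8.66% lower. Adrb1 passed the minimum FPKM of 0.1 only through S265D, since S265D-H1120Y had 0.052 from 594 mapped bases. The ratios of Gnas, Prkaca, Prkacb, Prkar1a, Prkar2a and Prkar2b stayed between 0.678 and 1.43 in all of these comparisons. WT B over WT A was past 2-fold in 2 members, Adrb1 and Prkar1b (50.2), against 27.2% of genes, 16.4% higher and 10.8% lower, and Prkar2a stood at 0.506. The Prkar1b ratios of 17.1 and 50.2 rest on an FPKM of 0.041 in WT A, from 396 mapped bases and under the minimum.

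**Figure D4:**
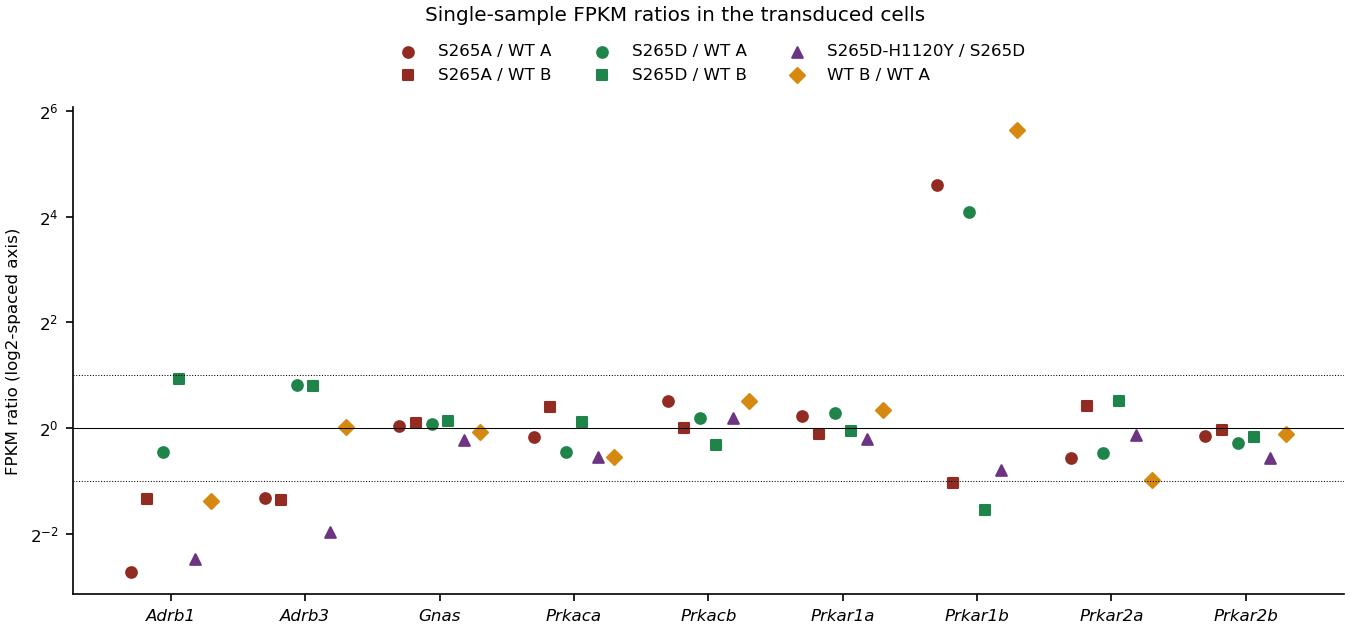
FPKM ratio (y axis, log2-spaced) of the 9 members (x axis) between single transduced samples, with 1 point per ratio, a line at 1 and dotted lines at 0.5 and 2. The points of Adrb3 for S265A lie at 0.397 and 0.390 and for S265D at 1.76 and 1.73, while those of Prkar1b fall on both sides of 1 depending on the WT sample.

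Transduced WT cells may also be set beside untransduced cells at day 8 with ROS, although these are separate experiments. Adrb1 was 8.46 times as high in WT A and 3.23 times as high in WT B. Adrb3 was 1.29 and 1.31 times and Prkar2b 1.42 and 1.31 times the untransduced value. Prkar1b was 0.064 times in WT A, where it had 396 mapped bases, and 3.19 times in WT B. In these comparisons 23.8% of 15477 genes (14.8% higher and 9.03% lower) and 29.4% of 15661 genes (20.7% higher and 8.75% lower) were past 2-fold.

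The genes most like Adrb3, by Pearson correlation of log2(FPKM + 0.1) over the 11 samples among 13615 genes that reached an FPKM of 1, were Fam123b (r = 0.989), Fam13a (0.984) and BC034902 (0.983). Those most like Prkar2b were Rnf24 (0.986), Ralgapa2 (0.980) and Acsl1 (0.978), the last a long-chain acyl-CoA synthetase of adipocytes. Those most like Adrb1 were Bex1 (0.945), Erlin2 (0.939) and Klhdc7a (0.933), at levels that for Adrb1 itself rest on few mapped bases. The 11 points share the day and the experiment, and these values describe likeness only.

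The other genes of the pathway were taken from lists of 83 genes, of which 65 were tested in the time course. Between day 0 and days 4 and 8, 21 of the 65 rose and 24 fell, with a median log2 change of -0.04 beside -0.01 for all genes tested, where 28.3% of all genes rose and 29.1% fell, and the counts of the single lists that follow, most of them of few genes, are to be read against these shares. Among other Gs-coupled receptors 4 of 8 rose and 2 fell, with a median of 1.21. Mc2r, the receptor of corticotropin, was listed at 0 in each day 0 sample and reached 9.59 and 8.34 at day 4 and 7.10 and 10.9 at day 8, without and with ROS in turn. It had the largest change on these lists, a log2 change of 6.49 ± 0.21 (limma adjusted p = 1.05e-05). As for Adrb3, the day 0 pair added no spread to this fit. The receptors of secretin (Sctr, 3.94 ± 0.24), thyrotropin (Tshr, 2.41 ± 0.23) and glucagon (Gcgr, 2.07 ± 0.24) also rose from at most 0.0663 at day 0, while the adenosine receptor Adora2b fell by 2.82 (SE 0.42), from 2.22 and 2.35 at day 0 to at most 0.643. Gcgr was the gene of these lists with the largest ROS difference among those that reached an FPKM of 1, with 0.233 without and 1.10 with ROS at day 4 and 0.0712 and 0.579 at day 8 (log2 difference 1.92 ± 0.28, limma adjusted p = 0.117).

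Of the adenylyl cyclases, which make cAMP, 5 of 8 rose and 2 fell, where 28.3% of all genes rose and 29.1% fell. Adcy7 fell by 4.89 on the log2 scale (SE 0.24, limma adjusted p = 3.67e-05), from an FPKM of 14.1 and 14.5 at day 0 to between 0.220 and 0.675 at days 4 and 8. Adcy5 rose (3.55 ± 0.25), from 0 and 0.00847 at day 0 to 0.240 and 0.552 at day 4 and 1.66 and 5.57 at day 8, without and with ROS, and was 3.51 to 25.0 in the transduced cells. It rose again from day 4 to day 8 (2.75 ± 0.29, limma adjusted p = 0.0158), a call that ended without either sample of day 0, with no minimum FPKM and with 1 mean per day and arm, where 0 genes passed. Adcy10, the soluble form, rose from 0 to between 0.263 and 0.479 (2.35 ± 0.25). Its day 0 pair, at 0 as for Adrb3, likewise added no spread to the fit. Of the phosphodiesterases, which break cAMP down, 4 of 13 rose and 3 fell. Pde3b, the insulin-regulated form of fat cells, went from 1.28 and 0.958 at day 0 to 45.9 and 48.3 at day 4 and 22.9 and 44.0 at day 8, a log2 change of 5.00 ± 0.21 (limma adjusted p = 1.98e-05).

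Of the inhibitory G protein genes and α2 receptors, 2 of 6 rose and 2 fell, with Gnao1 higher (2.54 ± 0.19, from 0.503 and 0.509 at day 0 to between 2.95 and 4.14). Of the anchoring proteins 3 of 11 rose and 5 fell, of the exchange factors and CREB regulators 1 of 10 rose and 6 fell, of the genes of receptor desensitization 2 of 6 rose and 2 fell, and of the kinase inhibitors 1 of 2 fell. Among all genes tested, 28.3% rose and 29.1% fell. Prkx, a kinase related to the catalytic subunits, fell as well. From day 4 to day 8, 4 of the 65 genes rose (Adcy5, Tshr, Pde1b and Pde2a) and 5 fell (Gnai3, Pde4b, Akap2, Ep300 and Pde7a), beside 4.57% of all genes higher and 3.9% lower. All 9 of these calls ended under the settings just named for Adcy5. With ROS and in the transduced cells limma called 0 of 65 in each comparison, as it called 0 of all genes. After Gcgr, the largest ROS differences on the lists were those of the exchange factor Rapgef3 (-1.34 ± 0.23, adjusted p = 0.130) and Adcy5 (1.31 ± 0.29, adjusted p = 0.141). In the transduced cells Gnai1, an inhibitory G protein subunit, had a log2 difference of 2.10 ± 1.05 for S265A versus WT, 2.18 ± 1.05 for S265D versus WT and -2.38 ± 1.22 for S265D-H1120Y versus S265D, each with a limma adjusted p of 1. Pde1b differed by -1.09 ± 0.39 for S265A and by -0.97 ± 0.39 for S265D versus WT, and Mc2r by -2.12 ± 1.30 for S265D-H1120Y versus S265D, also with an adjusted p of 1.

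**Figure D5:**
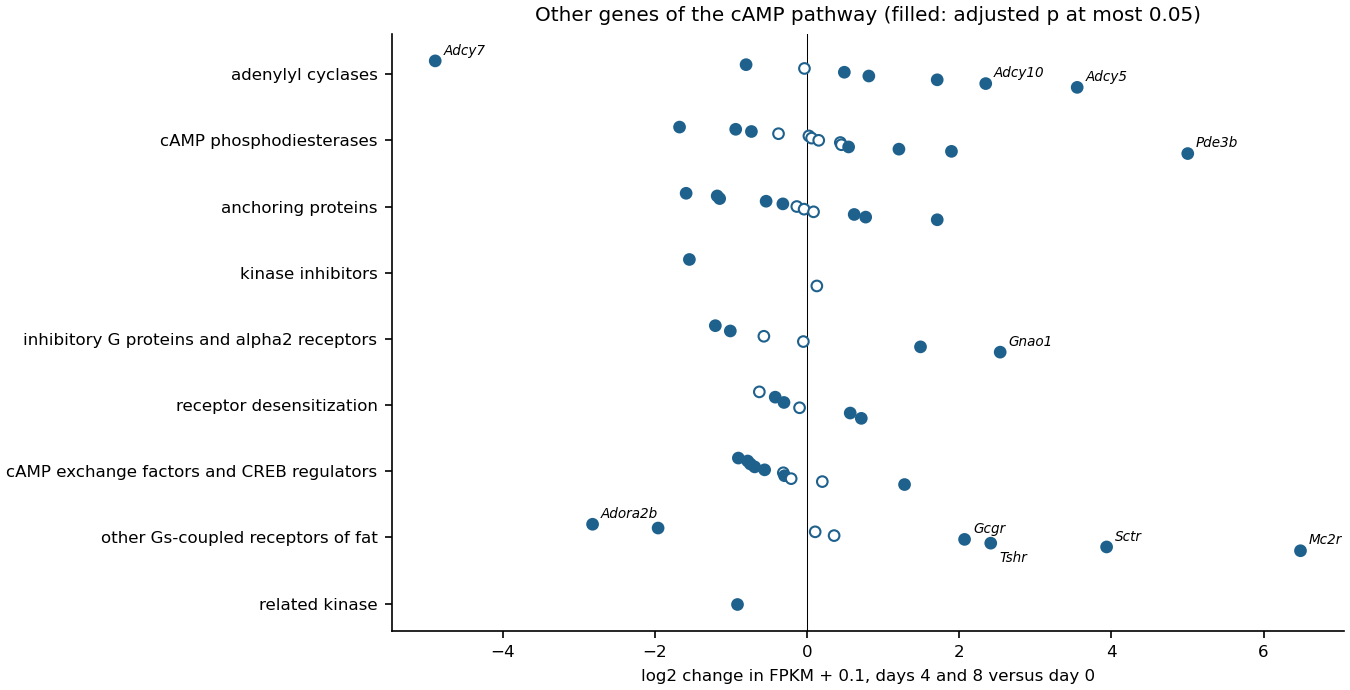
log2 change in FPKM + 0.1 between day 0 and days 4 and 8 (x axis) of the 65 tested genes of the cAMP pathway by list (y axis), 1 point per gene, filled where the limma adjusted p was at most 0.05 and named where the change was 2 or more. Mc2r and Pde3b lie at 6.49 and 5.00 and Adcy7 at -4.89.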

How the data were processed

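RNA-seq was measured in 11 samples, grouped by their labels. The authors mapped reads of TruSeq libraries with BWA against both mm9 and UCSC transcripts, refined the alignments locally and deposited FPKM per transcript for the sense and the antisense strand, with 1 file per sample. A further deposited column holds mapped bases, a coverage signal and not read counts, so no count test was used. Each gene was represented by the sense transcript that the files mark. The 9 members and the pathway lists were chosen with earlier results of these data known.

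A gene entered a fit where any fitted sample reached an FPKM of 0.1. The fits used limma (3.58.1, under R 4.3.3) with an intensity trend on log2(FPKM + 0.1), which understates changes of low genes, with Benjamini-Hochberg adjustment and a threshold of 0.05. The time course was fitted with day and ROS (2 residual degrees of freedom), the transduced cells with 1 mean per group (1 residual degree of freedom). The 2 of the time course come from the day 0 pair and from the difference of the ROS effect between days 4 and 8. The script was tested on simulated data. Noise was drawn from the spread of the day 0 pair for the time course and of the WT pair for the transduced cells. Changes were put only into genes with a mean log2(FPKM + 0.1) of at least 0, and no ROS effect was simulated. Recovery in the time course may therefore be higher than on the real data. For days 4 and 8 versus day 0 the script recovered 103 of 103 changes of 1 on the log2 scale, with 21 false calls among 15395 genes. For S265A versus WT it recovered 0 of 96 such changes and 62 of 104 changes of 2. The transduced fit can therefore miss changes of these sizes. Pairs of single samples were compared by the FPKM ratio at 2-fold, without a pseudocount and without a test. Named genes were the members, Kdm3a, the 3 genes most correlated with Adrb1, Adrb3 and Prkar2b, and for each comparison up to 10 pathway genes past the threshold, or the 6 largest where none passed. Alternatives changed the pseudocount, the minimum FPKM, the transcript, the scaling, the terms and the trend of the fit, and left out each replicate. Python 3.11.15, numpy 2.4.6, pandas 2.3.3 and matplotlib 3.10.9 were used. Protein sequences were not analysed here.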

Additional observations from a re-analysis of the deposited data

Results flagged for a closer look

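Antisense rows, which the comparisons above do not use, held a signal at members after day 0 that was above both samples of day 0 in all 4 later samples of the time course. The antisense FPKM of Adrb3 was 0 at day 0 and went from 0.0363 to 0.203 afterwards, which was 1.24% to 4.56% of its mapped bases on both strands. The antisense FPKM of Prkar2b was 0.0318 and 0.0339 at day 0 and went from 0.0919 to 0.273 afterwards, which was 0.176% and 0.183% of its mapped bases at day 0 and 0.106% to 0.156% later. For Prkar2b the antisense share was thus no higher than at day 0. No group had 4 or more samples, so no sample was tested for standing apart from its group.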

How the results depend on the processing

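The number of genes called between day 0 and days 4 and 8 was 9413, stayed within 1.5 times of it under the other settings, and was 4714 to 4842 with either sample of day 0 left out. For day 8 versus day 4 it was 1389, but 0 with no minimum FPKM, 0 with 1 mean per day and arm, 140 without the trend, 36 with the arm term over all 3 days, and 0 to 0 with either sample of day 0 left out. In each of these the fit had fewer residual degrees of freedom, more genes tested or another estimate of the spread, and which of them moved the count was not tested. For ROS and for the transduced cells 0 genes were called under every setting. Of the values of single members, 91 of those with a replicate left out kept their side of the threshold and 11 lost their call, and of the others 381 stayed, 6 lost their call and 3, the shares given below, moved by over 1 SD, and no called value changed direction. Without the trend, Prkacb (adjusted p = 0.0585) and Prkar2a (0.0519) no longer passed for days 4 and 8, and with the arm term over all 3 days Prkacb (0.0538) did not. With the transcript of the highest mean, an alternative added after seeing the data, the share of Prkar2b in the regulatory subunits was 11.6% in place of 8.50% at day 0, 60.1% in place of 55.8% at day 4, 57.7% in place of 51.2% in WT, and moved by under 1 SD at day 8 (43.1% in place of 38.7%). Median-ratio scaling of single samples, also added after seeing the data, was run for ROS plus over minus and between transduced samples, and left the number of members past 2-fold in these as it was except for WT B over WT A (3 in place of 2). The labels number replicates only within WT, so no replicate numbers pair samples, and the arm term, which treats ROS plus and minus as arms through all 3 days, was the nearest to a paired fit. Depth limits Adrb1, and the single samples of the mutants limit all comparisons with them.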
